A study of Mus musculus with 12 samples.

Results

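The genes described here are 37 genes of S phase and mitosis, which encode the machinery that licenses and copies DNA, supplies its nucleotides and divides the chromosomes. They were chosen by symbol, and each was read by its brightest probe set, the one with the highest mean over the 12 arrays. On these arrays 36 of the 37 were measured among 18194 genes. Ccnb1 was not analysed here. The measured genes comprise 13 of origin licensing and the replication fork, 4 of nucleotide supply, 5 S phase cyclins, kinases and transcription factors, and 14 of mitosis.

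Liver RNA came from mice of the strain SV129XC57Bl/6. The LG2KO refed and LG2KO fasted groups carry the genotype label LG2KO and were treated with tamoxifen, while the control refed and control fasted groups carry the genotype label control and no tamoxifen label. Refed mice were fasted and then refed. The length of the fast and of refeeding, the age and the sex of the mice were not stated in the labels. LG2KO is not spelled out in the labels and is read here as a knockout of hepatic Glut2, the glucose transporter encoded by Slc2a2. The labels do not state what drives the deletion, such as the promoter of a Cre. Genotype and tamoxifen treatment cannot be told apart in any genotype comparison. RNA of 3 animals was pooled for every array, and there were 3 such pools in each group (n = 3). For LG2KO fasted livers 1 label, the source name, reads fasted/refed, whereas title and diet read fasted; the titles decided the group.

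A cell that prepares to divide loads the MCM helicase onto its origins with the help of Cdc6 and Cdt1. In S phase Cdc45 and the GINS complex turn that helicase on, PCNA holds the polymerases on the template, and ribonucleotide reductase makes the deoxynucleotides. Cyclin A and B kinases, Aurora and Polo kinases and the spindle checkpoint then carry the cell through mitosis. Adult hepatocytes are mostly quiescent, and they can re-enter this cycle after loss of liver tissue.

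All values are log2 levels after RMA, a method that corrects background, equalises the arrays' distributions and summarises the probes of a set. Slc2a2 checked the genotype labels. Its level was 3.79, 3.64 and 3.80 on the LG2KO refed arrays, against 10.67, 11.30 and 10.90 on the control refed arrays. It was 4.02, 4.13 and 3.56 on the LG2KO fasted arrays, against 10.00, 11.08 and 10.82 on the control fasted arrays. The hepatocyte marker Alb lay between 14.1 and 14.4 on all arrays. The median correlation of an array with the others of its group was lowest for control refed replicate 1 and LG2KO fasted replicate 3, at 0.986 each. Control fasted replicate 3 carried pancreas transcripts, with Ctrb1 at 9.18.

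Promoters of 4 genes are shown first. Rrm2 is the gene with the largest difference between groups, and Mcm5 passed for refeeding averaged over genotype. Mcm2 and Mcm6, subunits of the same helicase as Mcm5, passed in no comparison on all 12 arrays. Their highest array in each refed group was that of Mcm5, and Cdt1 shared it. Promoters of the other genes that passed, Gins1, Birc5, Cdt1 and Tk1, are not shown. Each sequence is the 250 bases before the start of the gene in RefSeq's table for GRCm38.p6, read 5′ to 3′ on the gene's strand. Capitals mark matches, on either strand, to an E2F site (TTTCCCGC, TTTCGCGC, TTTGGCGC or TTTGCCGC), to the CCAAT box (CCAAT) or to the CHR element of late cell cycle genes (TTTGAA or TTCGAA).
Rrm2, chr12:24708004-24708253, plus strand: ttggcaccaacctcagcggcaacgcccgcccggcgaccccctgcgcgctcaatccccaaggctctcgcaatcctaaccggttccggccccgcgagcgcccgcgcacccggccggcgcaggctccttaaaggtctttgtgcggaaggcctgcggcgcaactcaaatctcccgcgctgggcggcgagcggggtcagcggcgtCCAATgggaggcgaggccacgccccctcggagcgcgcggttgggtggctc
Mcm5, chr8:75109259-75109508, plus strand: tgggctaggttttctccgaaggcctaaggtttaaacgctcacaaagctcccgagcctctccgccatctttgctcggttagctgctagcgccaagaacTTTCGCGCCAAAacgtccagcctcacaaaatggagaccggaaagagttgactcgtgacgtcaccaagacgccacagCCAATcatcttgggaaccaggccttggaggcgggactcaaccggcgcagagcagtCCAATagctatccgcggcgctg
Mcm2, chr6:88898781-88899030, minus strand: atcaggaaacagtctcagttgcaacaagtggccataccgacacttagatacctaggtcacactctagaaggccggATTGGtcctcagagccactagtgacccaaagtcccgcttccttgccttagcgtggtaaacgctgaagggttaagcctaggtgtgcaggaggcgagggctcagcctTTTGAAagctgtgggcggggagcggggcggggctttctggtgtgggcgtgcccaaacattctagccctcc
Mcm6, chr1:128359706-128359955, minus strand: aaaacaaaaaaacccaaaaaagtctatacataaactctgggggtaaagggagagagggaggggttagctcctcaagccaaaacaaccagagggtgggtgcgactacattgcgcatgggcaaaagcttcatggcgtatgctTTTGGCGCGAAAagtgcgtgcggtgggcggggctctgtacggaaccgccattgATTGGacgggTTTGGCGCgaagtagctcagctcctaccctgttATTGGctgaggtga

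The Mcm5 promoter held an overlapping pair of E2F matches, whose first letters lie 153 and 149 bases before the start, and CCAAT boxes at 77 and 22 bases. The Mcm6 promoter held an overlapping E2F pair at 110 and 106 bases and another match at 47 bases, with the CCAAT box on the other strand at 57 and 14 bases. The Mcm2 promoter held a CCAAT box on the other strand at 175 bases and the CHR letters at 70 bases. The Rrm2 promoter held 1 CCAAT box, at 50 bases. Of the 4 nucleotide supply genes, 0 held an E2F match, 0 the CHR letters and 2 the CCAAT box, Rrm1 and Rrm2. The Tk1 promoter thus held no match. Of the 36 measured genes 28 matched a promoter in the table. An E2F match was present in 6 of the 28 (21.4%), against 2.16% of the 27025 genes with a promoter in the table. The CCAAT box was present in 21 of 28 (75.0%), against 37.5% of all genes with a promoter. The CHR letters were present in 10 of 28 (35.7%), against 19.6% of all genes with a promoter, and in 7 of the 11 mitosis genes with a promoter. These are matches of letters in a window, not measured binding sites.

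The plot of all members by array gives each gene's level relative to its own mean over the arrays. The mean level over the 36 genes lay between 5.55 and 5.75 on the LG2KO refed arrays, against 5.50 and 5.75 on the control refed arrays. It lay between 5.64 and 5.77 on the LG2KO fasted arrays, against 5.60 and 5.73 on the control fasted arrays. The ranges of the 4 groups overlapped.

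**Figure D1:**
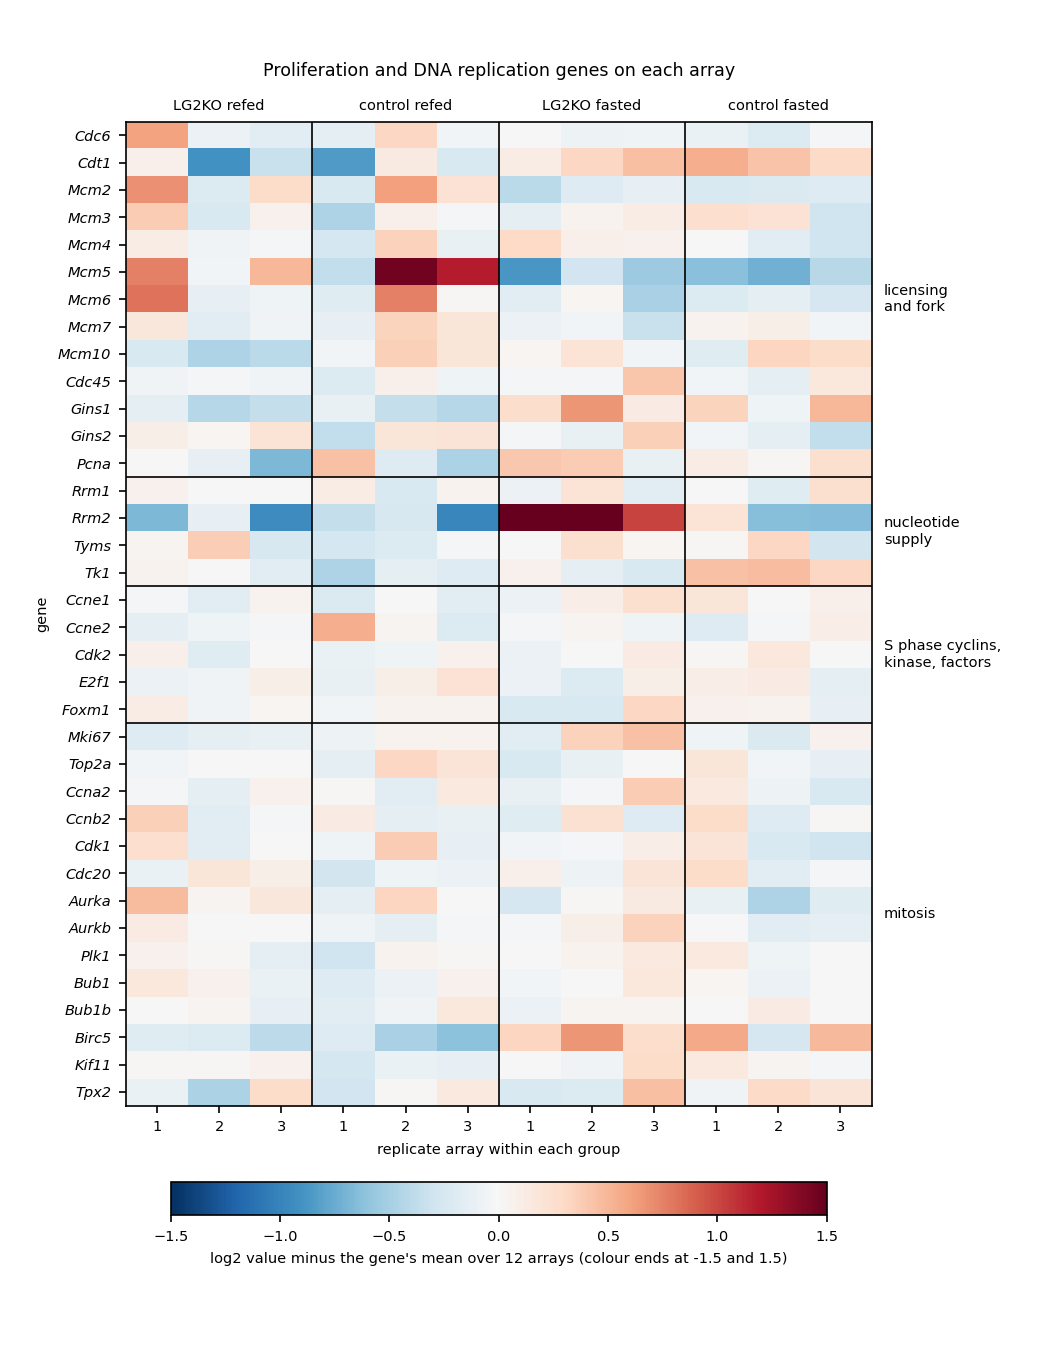
Heat map of 36 genes (rows, by role) on 12 arrays (columns, by group), coloured by log2 level minus the gene's mean over the arrays. Rrm2 stands out as high on the 3 LG2KO fasted arrays, and Mcm5 as above its mean on 4 of the 6 refed arrays.

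The genotype comparison asks how LG2KO livers differ from control livers in each feeding state. In refed livers 0 of the 36 genes passed in limma, at an adjusted p below 0.05, against 0.379% of all genes in either direction. At an unadjusted p below 0.05, 0 genes were higher and 1 was lower in LG2KO, against 9.13% of all genes in either direction. The arrays of LG2KO and control did not overlap for 2 genes that were higher and 2 that were lower in LG2KO, against 15.4% of all genes. The median log2 difference of the 36 genes was 0.02, and that of all genes was 0.02. In fasted livers 1 of the 36 genes passed, Rrm2, which was higher, against 0.308% of all genes higher and 0.396% in either direction. The arrays did not overlap for 2 genes higher, Rrm2 and Mcm4, and 2 lower, Tk1 and Mcm7, against 10.8% of all genes. The median of the 36 genes was 0.03 there, and that of all genes was -0.00. Averaged over feeding, 0 of the 36 passed in limma, against 1.02% of all genes, and at an unadjusted p below 0.05 2 genes were higher and 1 was lower, against 8.86% of all genes.

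Rrm2 encodes the small, radical-bearing subunit of ribonucleotide reductase, which is made mainly in S phase. Its level was 8.36, 8.63 and 7.82 on the LG2KO fasted arrays, against 7.01, 6.17 and 6.16 on the control fasted arrays. In the refed state it was 6.14, 6.69 and 5.86 in LG2KO and 6.45, 6.57 and 5.83 in control. The 3 LG2KO fasted arrays lay above all other arrays, and the other groups overlapped. Rrm2 was higher by 1.82 ± 0.30 (SE) on the log2 scale, 3.54-fold, in LG2KO than in control fasted livers (limma, adjusted p = 0.0187). In refed livers its difference was -0.05 ± 0.30, with a 95% interval of -0.70 to 0.59 (adjusted p = 0.973). Refeeding LG2KO mice lowered it by 4.12-fold, a log2 difference of -2.04 ± 0.30 (adjusted p = 0.00124). In control mice the difference with refeeding was -0.17 ± 0.30 (adjusted p = 0.891). The interaction of genotype and feeding, the refed minus fasted difference in LG2KO less that in control, was -1.88 ± 0.42 and did not pass (adjusted p = 0.409).

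Rrm2 was read by 3 probe sets, and the plot of their values shows the same order of groups in each. The second probe set gave 7.15, 7.34 and 6.56 on the LG2KO fasted arrays and 5.94, 4.99 and 5.05 on the control fasted arrays, a difference of 1.69 ± 0.28 (limma, adjusted p = 0.0284 over probe sets). The last gave 7.07, 7.02 and 6.48 in LG2KO fasted and 6.07, 6.04 and 5.77 in control fasted livers, a difference of 0.89 ± 0.17 that did not pass (adjusted p = 0.0703 in limma). With each probe set the 3 LG2KO fasted arrays lay above the other 9. The fasted genotype call was missed when LG2KO fasted replicate 1, LG2KO fasted replicate 2, control fasted replicate 2 or control fasted replicate 3 was left out, with adjusted p up to 0.119 and a difference between 1.64 and 2.10 over all 12 omissions. It was also missed with only the 6 fasted arrays in the fit (adjusted p = 0.0625).

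The other 3 genes of nucleotide supply did not follow Rrm2. Tk1, the thymidine salvage kinase of S phase, was 8.46, 8.78 and 8.73 on the control refed arrays, against 9.36, 9.39 and 9.24 on the control fasted arrays. On the LG2KO refed arrays it was 8.98, 8.92 and 8.76, against 8.99, 8.79 and 8.70 on the LG2KO fasted arrays. The 3 control fasted arrays lay above the other 9. Refeeding lowered Tk1 in control livers by 1.60-fold, a log2 difference of -0.68 ± 0.12 (adjusted p = 0.0036), and in LG2KO livers the difference was 0.06 ± 0.12 (adjusted p = 0.898). The control call held without each array in turn, at adjusted p between 0.00348 and 0.0211. Averaged over genotype its difference was -0.31 ± 0.08 (adjusted p = 0.0255), a call missed without LG2KO refed replicate 3, LG2KO fasted replicate 1, control fasted replicate 1 or control fasted replicate 2, with adjusted p up to 0.0716. Its interaction was 0.74 ± 0.16 with an unadjusted p of 0.000718, which did not pass (adjusted p = 0.409), so the genotypes were not shown to differ. Between LG2KO and control fasted livers Tk1 differed by -0.50 ± 0.12 (adjusted p = 0.143). Rrm1, the large subunit of the reductase, ranged from 6.22 to 6.59 in LG2KO fasted and from 6.20 to 6.62 in control fasted livers. Tyms, which makes thymidylate, had a fasted genotype difference of 0.07 ± 0.17, with an interval of -0.29 to 0.43. Its probe set was dim, at a mean percentile of 12.5, and the background level is not known.

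The refeeding comparison asks how a fasted liver changes when food returns. In LG2KO livers 2 of the 36 genes passed and both were lower, Rrm2 and Gins1, against 2.40% of all genes lower and 7.05% in either direction. In control livers 1 of the 36 passed and was lower, Tk1, against 3.17% of all genes lower and 6.46% in either direction. Averaged over genotype 6 of 36 passed, against 13.6% of all genes. Mcm5 was higher, against 7.86% of all genes, and Rrm2, Gins1, Birc5, Cdt1 and Tk1 were lower, against 5.77% of all genes. Refed and fasted arrays did not overlap for 1 gene higher and 6 lower in LG2KO, against 22.5% of all genes, for 1 gene higher and 5 lower in control livers, against 20.5%, and for 1 gene over all 12 arrays, Gins1, against 7.24%. The median log2 difference of the 36 genes was -0.04 averaged over genotype, and that of all genes was -0.00. The LG2KO and control comparisons use separate arrays, and the average uses both.

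**Figure D2:**
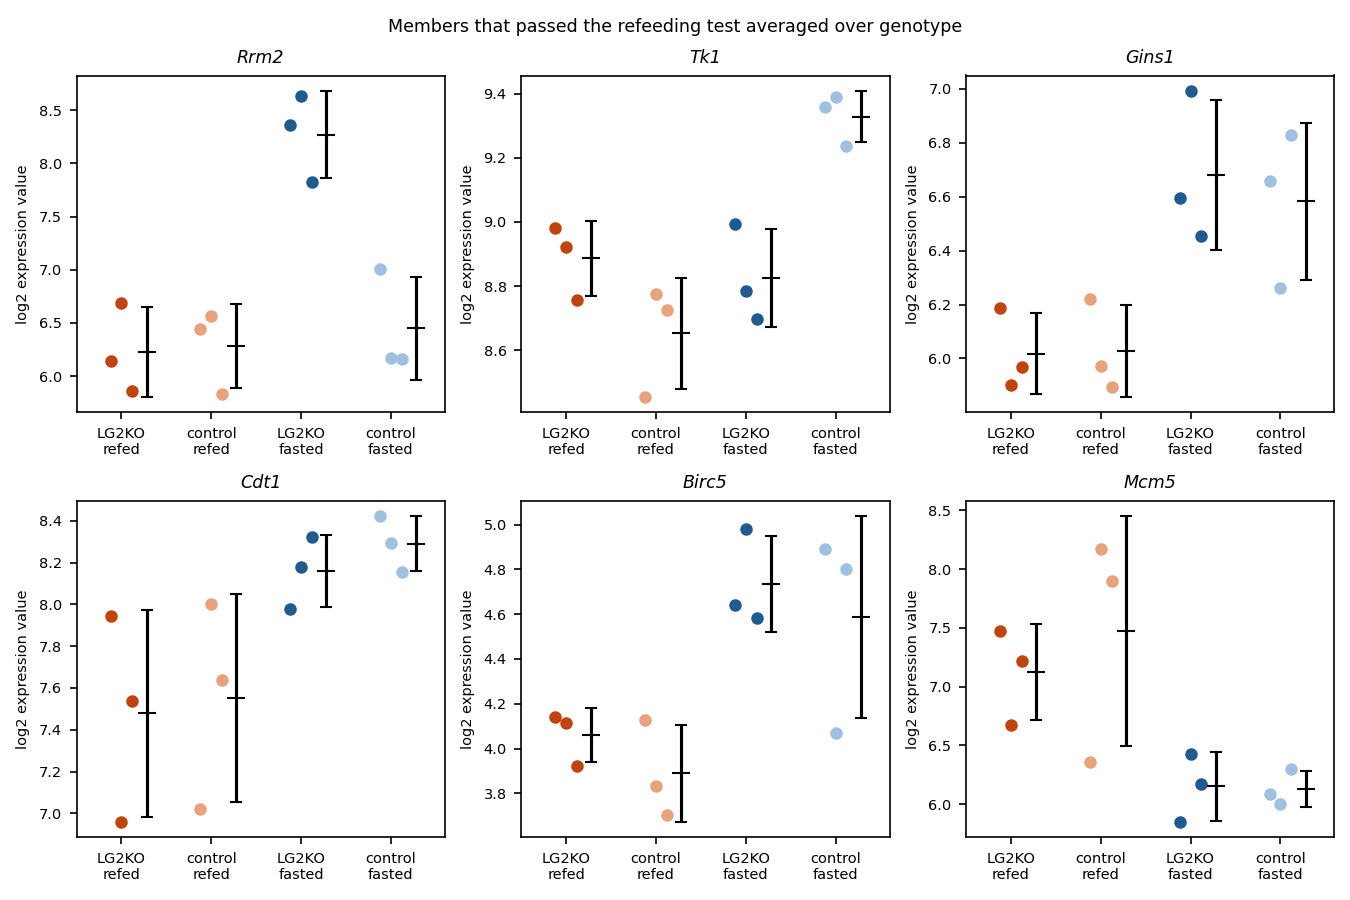
Log2 level (vertical axis) of the 6 genes that passed for refeeding averaged over genotype, with 1 point per array, the group mean and SD, by group (horizontal axis). Rrm2 is high in LG2KO fasted livers, Tk1 in control fasted livers, and Mcm5 in both refed groups.

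Among the licensing and fork genes, Mcm5 rose and Gins1 and Cdt1 fell. Mcm5, a subunit of the helicase, was 7.48, 6.67 and 7.22 on the LG2KO refed arrays, against 5.85, 6.43 and 6.18 on the LG2KO fasted arrays. It was 6.35, 8.17 and 7.90 on the control refed arrays, against 6.09, 6.00 and 6.30 on the control fasted arrays. The groups did not overlap within either genotype. Averaged over genotype refeeding raised it by 2.23-fold, a log2 difference of 1.16 ± 0.27 (adjusted p = 0.0111). The difference was 0.97 ± 0.38 in LG2KO (adjusted p = 0.171) and 1.34 ± 0.38 in control livers (adjusted p = 0.0544). Without control refed replicate 1 both passed, at 0.97 (adjusted p = 0.0105) and 1.90 (adjusted p = 0.000424). That array was the lowest for Mcm5 in its group, so leaving it out had to raise the control difference. The LG2KO difference stayed the same, and only its SE fell, from 0.38 to 0.20. These calls are therefore not separate support. A second probe set of Mcm5 had a refeeding difference of 0.86 ± 0.22 (adjusted p = 0.0269 over probe sets, limma), and its last one had 0.02 ± 0.13.

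Its partners Mcm2 and Mcm6 had smaller differences that did not pass, 0.45 ± 0.16 (adjusted p = 0.092) and 0.40 ± 0.19 (adjusted p = 0.222) averaged over genotype. Mcm2 was 7.57, 6.68 and 7.16 on the LG2KO refed arrays and 6.65, 7.50 and 7.09 on the control refed arrays, against 6.47 to 6.76 on the 6 fasted arrays. Mcm6 was 5.25, 4.31 and 4.37 on the LG2KO refed arrays and 4.25, 5.19 and 4.46 on the control refed arrays, against 3.96 to 4.47 on the fasted arrays. In each of Mcm2, Mcm5 and Mcm6 the high refed arrays included LG2KO refed replicate 1 and control refed replicate 2, and the lowest refed arrays were LG2KO refed replicate 2 and control refed replicate 1. This order was not particular to these genes. Of the 13 licensing and fork genes, 9 lay above their own mean on LG2KO refed replicate 1 and 11 on control refed replicate 2. On LG2KO refed replicate 2 and on control refed replicate 1 it was 1 of 13 each. Cdt1, which fell with refeeding, had the same highest and lowest refed arrays. Control refed replicate 1 is one of the arrays that stand apart, and without it and LG2KO fasted replicate 3 the averaged difference of Mcm2 passed, at 0.59 ± 0.15 (adjusted p = 0.0137). Mcm3, Mcm4 and Mcm7 had refeeding differences between -0.20 and 0.14 in both genotypes.

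Gins1, a subunit of the GINS complex, was 6.19, 5.90 and 5.97 on the LG2KO refed arrays, against 6.59, 6.99 and 6.46 on the LG2KO fasted arrays. On the control refed arrays it was 6.22, 5.97 and 5.89, against 6.66, 6.26 and 6.83 on the control fasted arrays. All 6 refed arrays lay below all 6 fasted arrays. Averaged over genotype it fell by 0.61 ± 0.13 (adjusted p = 0.00587). The LG2KO difference of -0.66 ± 0.18 passed (adjusted p = 0.0419), but it was missed when any of 8 of the 12 arrays was left out, with adjusted p up to 0.172; it held without control refed replicate 1, LG2KO fasted replicate 3, control fasted replicate 2 or control fasted replicate 3. The control difference was -0.55 ± 0.18 (adjusted p = 0.0958). Its second probe set had an averaged difference of -0.24 ± 0.13 (adjusted p = 0.381 over probe sets, limma).

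Cdt1, which loads the helicase, was 7.95, 6.96 and 7.54 on the LG2KO refed arrays, against 7.98, 8.18 and 8.32 on the LG2KO fasted arrays. It was 7.02, 8.0 and 7.64 on the control refed arrays, against 8.42, 8.29 and 8.16 on the control fasted arrays. The groups did not overlap within a genotype. Averaged over genotype it fell by 0.71 ± 0.18 (adjusted p = 0.0198), and without control fasted replicate 1 the call was missed (adjusted p = 0.0524). Its other probe sets had averaged differences of -0.47 ± 0.14 (adjusted p = 0.0506 over probe sets, limma) and 0.04 ± 0.06. Pcna, the sliding clamp, was 9.53, 9.42 and 8.87 in LG2KO refed livers, against 9.95, 9.93 and 9.43 in LG2KO fasted livers, a difference of -0.50 ± 0.23 that did not pass (adjusted p = 0.277). Mcm10, which helps to activate the helicase, was 10.06, 9.82 and 9.88 on the LG2KO refed arrays, against 10.24, 10.65 and 10.47 on the control refed arrays. Those 3 LG2KO arrays lay below the 3 control arrays, and the difference of -0.53 ± 0.14 did not pass (adjusted p = 0.185). Cdc6, Cdc45 and Gins2 had refeeding differences between -0.16 and 0.18 in either genotype, none of which passed. The probe set of Cdc6 was dim, at a mean percentile of 7.33.

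**Figure D3:**
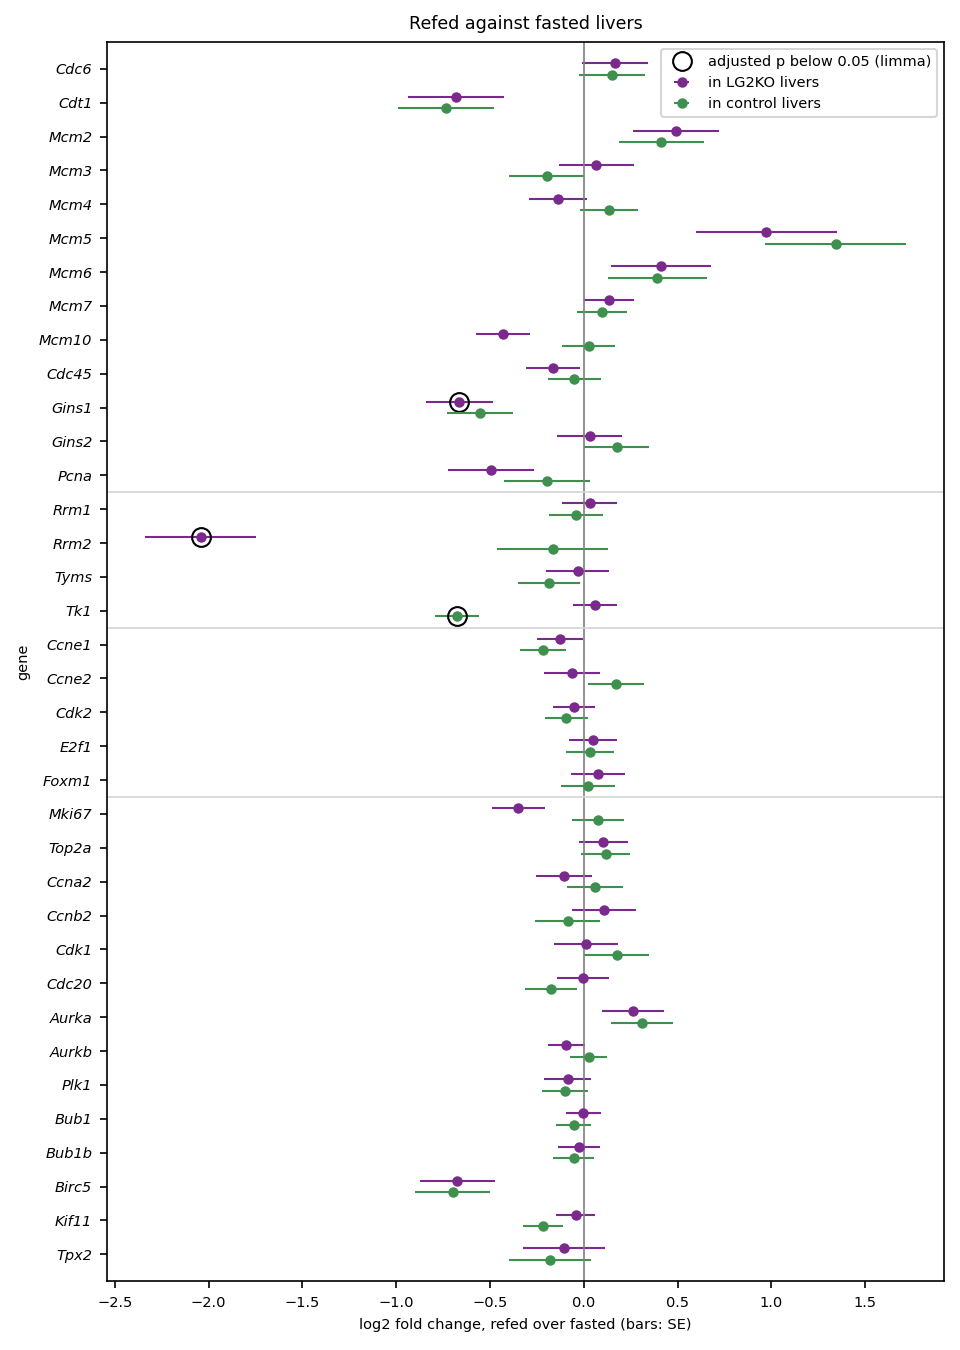
Log2 difference of refed minus fasted livers (horizontal axis) with its SE for each of the 36 genes (vertical axis), in LG2KO and in control. Rrm2 in LG2KO lies at -2.04 and in control at -0.17, and Mcm5 is positive in both genotypes.

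Read by their brightest probe sets, the 5 S phase cyclins, kinases and factors did not pass in any comparison in limma, and 0 of them reached an unadjusted p below 0.05. Ccne1 and Ccne2, the E-type cyclins, Cdk2, their kinase, E2f1, the transcription factor of S phase genes, and Foxm1, that of mitotic genes, had refeeding differences between -0.22 and 0.17 in the 2 genotypes. The probe set of Ccne2 was dim, at a mean percentile of 3.31. The 95% intervals of the refeeding difference of Cdk2 averaged over genotype ran from -0.24 to 0.10, and those of E2f1 from -0.15 to 0.24. With the mean of all probe sets of a gene, Ccne1 passed for refeeding averaged over genotype, at -0.27 ± 0.07 (limma, adjusted p = 0.0368).

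Among the 14 mitosis genes Birc5 alone passed, for refeeding averaged over genotype. Birc5 encodes survivin, which works with Aurora B at the centromere. It was 4.14, 4.12 and 3.92 on the LG2KO refed arrays, against 4.64, 4.98 and 4.58 on the LG2KO fasted arrays. On the control refed arrays it was 4.13, 3.84 and 3.70, against 4.89, 4.07 and 4.80 on the control fasted arrays. The LG2KO groups did not overlap, and control fasted replicate 2 lay within the range of the control refed arrays. The probe set of Birc5 was dim, between the 16.3 and 36.3 percentile of its arrays, and the background level is not known. Averaged over genotype Birc5 fell by 0.69 ± 0.14, 1.61-fold (adjusted p = 0.00577), and the separate differences were -0.68 ± 0.20 in LG2KO (adjusted p = 0.0655) and -0.70 ± 0.20 in control livers (adjusted p = 0.0597).

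The classical proliferation marker Mki67 was 3.64, 3.71 and 3.73 on the LG2KO refed arrays and 3.76, 3.89 and 3.89 on the control refed arrays. It was 3.67, 4.18 and 4.27 on the LG2KO fasted arrays and 3.78, 3.62 and 3.91 on the control fasted arrays. The LG2KO refed arrays lay below the control refed arrays, and the other groups overlapped. The refeeding difference was -0.35 ± 0.14 in LG2KO (adjusted p = 0.195) and 0.08 ± 0.14 in control livers (adjusted p = 0.895). With array weights the LG2KO difference passed, at -0.37 ± 0.12 (limma, adjusted p = 0.0451). Without LG2KO fasted replicate 1 it passed at -0.53 ± 0.11 (limma, adjusted p = 0.0201). That array was the lowest of its group, so leaving it out had to enlarge the difference. Top2a, which untangles replicated DNA, had a genotype difference of -0.14 ± 0.13 in refed and -0.12 ± 0.13 in fasted livers, with intervals of -0.42 to 0.15 and -0.40 to 0.16. The probe set of Mki67 lay between the 15.6 and 24.1 percentile of its arrays, where the background level is not known. Aurka, the centrosomal Aurora kinase, had a refeeding difference of 0.29 ± 0.12 averaged over genotype (adjusted p = 0.147). The cyclins Ccna2 and Ccnb2, the kinases Cdk1 and Plk1, the checkpoint kinases Bub1 and Bub1b, the activator Cdc20 and the spindle proteins Kif11 and Tpx2 had averaged refeeding differences between -0.14 and 0.09. Aurkb, the centromeric Aurora kinase, had a genotype difference of 0.18 ± 0.07 averaged over feeding (adjusted p = 0.426). The probe sets of Aurkb and Bub1 were dimmer than that of Mki67, at mean percentiles of 6.10 and 4.60.

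**Figure D4:**
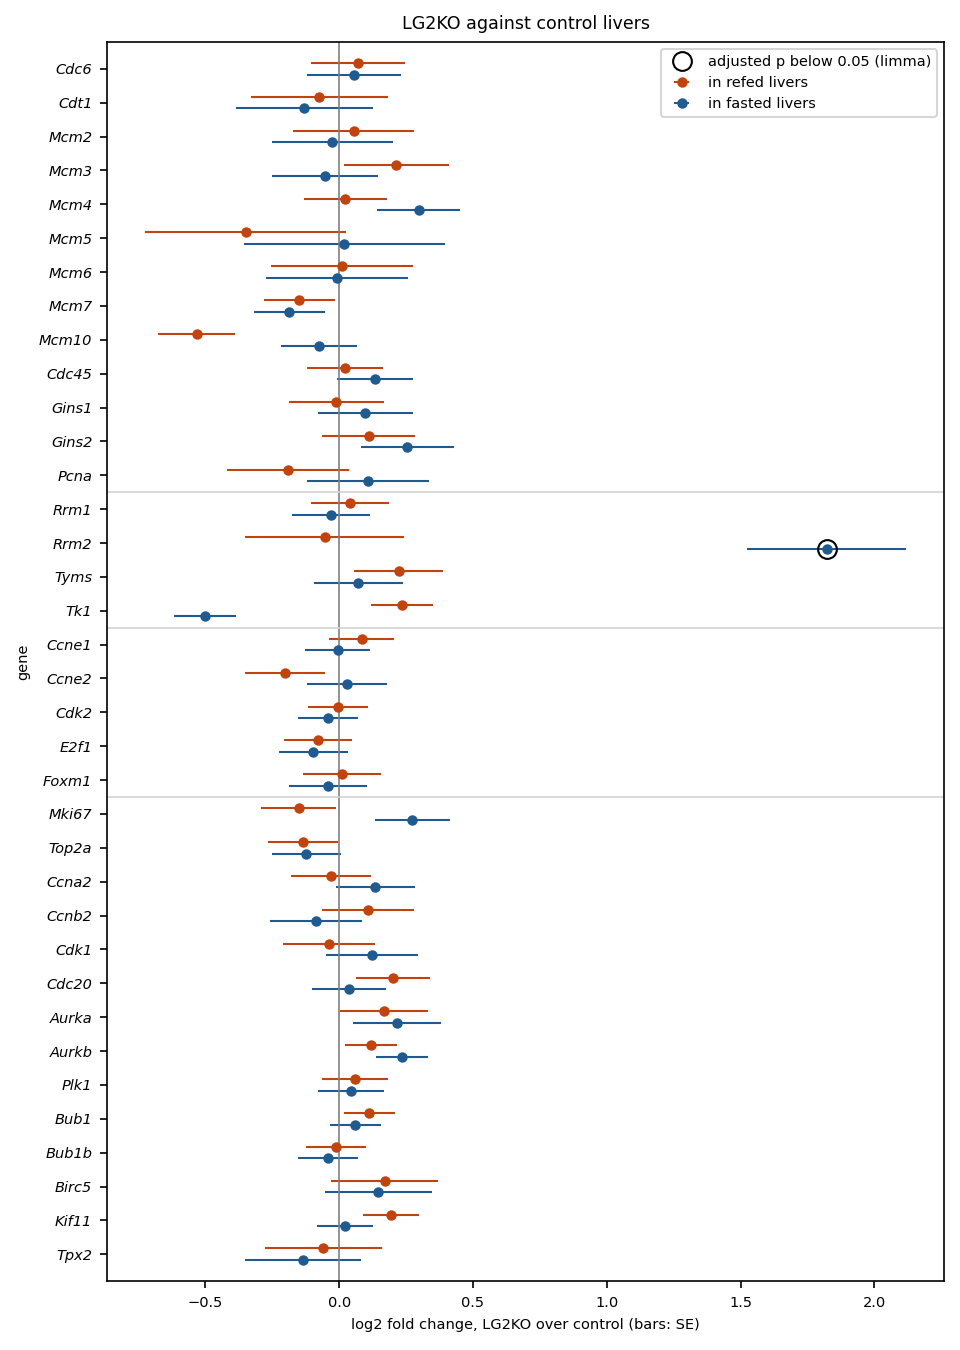
Log2 difference of LG2KO minus control livers (horizontal axis) with its SE for each of the 36 genes (vertical axis), in the refed and in the fasted state. The fasted difference of Rrm2 lies at 1.82, and the other genes lie between -0.53 and 0.30.

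The interaction of genotype and feeding passed for 0 of the 36 genes in limma, against 0.00550% of all genes. At an unadjusted p below 0.05 there was 1 higher, Tk1, and 2 lower, Rrm2 and Mcm10, against 4.73% of all genes in either direction. The genotype comparisons share their arrays with the refeeding comparisons.

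Other genes of the cycle were read from 3 further lists. Of 25 other replication genes, refeeding raised 3 and lowered 2 averaged over genotype, where 7.86% of all genes passed higher and 5.77% lower. Geminin, Gmnn, which blocks Cdt1, fell by 1.08 ± 0.14 (adjusted p = 0.000239), and Gins4, a GINS subunit, fell by 0.51 ± 0.08. Prim1, the primase subunit that starts new strands, rose by 0.74 ± 0.11 and Dut, which removes dUTP, by 0.56 ± 0.10. Of 33 other mitosis genes 1 passed, Cks1b, a partner of cyclin-dependent kinases, which rose by 0.54 ± 0.09, against 13.6% of all genes passing in either direction. Of 21 cell cycle control genes 4 rose and 5 fell, against the same 7.86% and 5.77% of all genes. The D-type cyclin Ccnd1 rose by 1.18 ± 0.15, while the inhibitor gene Cdkn2c fell by 0.68 ± 0.09, Wee1, which restrains Cdk1, fell by 0.50 ± 0.08, and Rbl2, a pocket protein of quiescent cells, fell by 1.14 ± 0.19. In LG2KO livers refeeding raised 1 and lowered 2 of the other replication genes, raised 1 of the other mitosis genes, and raised 2 and lowered 3 of the control genes, where 7.05% of all genes passed in either direction. In control livers it raised 3 and lowered 2, raised 1, and raised 2 and lowered 3 of the same lists, where 6.46% of all genes passed in either direction.

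In the genotype comparisons the further lists gave 1 call in refed livers, 0 in fasted livers in limma and 2 averaged over feeding, where 0.379%, 0.396% and 1.02% of all genes passed. Cdkn1a, which encodes the kinase inhibitor p21, was 8.40, 8.30 and 8.10 on the LG2KO refed arrays, against 6.50, 7.03 and 6.51 on the control refed arrays. It was higher by 1.59 ± 0.27 in refed LG2KO livers (adjusted p = 0.0369) and by 1.35 ± 0.19 averaged over feeding (adjusted p = 0.00503). In fasted livers Cdkn1a was higher by 1.12 in LG2KO, which did not pass. The interaction passed for 0 of the 21 cell cycle control genes, so the Cdkn1a difference was not shown to be particular to refed livers. Cdkn2c was higher by 0.41 ± 0.09 averaged over feeding (adjusted p = 0.0424). In fasted livers, at an unadjusted p below 0.05, 1 of 25 other replication genes and 1 of 33 other mitosis genes were higher in LG2KO. Of 21 cell cycle control genes 2 were higher and 1 was lower. The share of all genes at that threshold is not given for fasted livers, so these counts are not read as a result.

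Markers of liver cell types were read in the same fit. In bulk liver RNA, fewer cells of a type and less RNA per cell cannot be told apart. Of 5 measured erythroid markers of a list of 8, Klf1, an erythroid transcription factor, fell by 1.05 ± 0.14 with refeeding in LG2KO and by 1.42 ± 0.14 in control livers, and the other 4 did not pass. The mean of the erythroid markers ranged from 6.42 to 6.73 in LG2KO refed and from 6.11 to 6.47 in control refed livers, against 6.61 to 6.94 in LG2KO fasted and 6.62 to 6.81 in control fasted livers. This mean includes Klf1 and is not read as a shift of the whole set. With refeeding 3 of the 5 markers were higher and 2 lower in LG2KO, with a median log2 difference of 0.01. In control livers 1 was higher and 4 were lower, with a median of -0.10. The globin gene Hba-a1, read by 1 probe set with a mean percentile of 7.98, was at most 3.27 on any array. Alas2, another erythroid marker, had a mean of 9.50 over the arrays. The low Hba-a1 value is therefore not read as a lack of blood RNA. Averaged over genotype refeeding also changed 1 of 7 macrophage, 1 of 6 lymphocyte, 1 of 6 endothelial, 1 of 4 cholangiocyte and 1 of 6 hepatocyte markers. Of the 51 markers 3 were higher and 3 lower there, against 13.6% of all genes passing in either direction. The part of these cells in the refeeding differences was not tested. In the genotype comparisons 0 of the 51 markers passed in limma, against 0.379% of all genes in refed and 0.396% in fasted livers. At an unadjusted p below 0.05, 2 markers were higher and 1 lower in refed livers, against 9.13% of all genes in either direction. In fasted livers 1 was higher and 1 lower, and the share of all genes at that threshold is not given.

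Leaving out control refed replicate 1 and LG2KO fasted replicate 3, which stand apart, gave more refeeding calls among all genes as well as among the 36. Then 6 of the 36 genes passed in LG2KO, against 17.5% of all genes, 4 in control livers, against 12.1%, and 10 averaged over genotype, against 25.2%. In LG2KO these were Rrm2, Gins1, Pcna, Mcm10 and Birc5, all lower, and Mcm5, higher. In control livers Mcm5 was higher and Gins1, Tk1 and Birc5 were lower. Averaged over genotype Mcm2, Gins2, Pcna and Aurka joined the 6 that passed on all arrays, and Rrm2 also passed for genotype averaged over feeding, at 1.04 ± 0.22 (adjusted p = 0.0442), where 1.29% of all genes passed.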

How the data were processed

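Liver RNA pools were hybridised to Affymetrix mouse arrays. The authors deposited log2 values, 1 per probe set and array, made with RMA per the submitters' processing notes (no version was stated). The table holds 0 columns of other samples.

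Of 45101 probe sets, 34958 had 1 symbol in the platform annotation, 932 had several and were left out, and 9211 were not listed there. Each of 18194 genes was read from its brightest probe set over the 12 arrays, with no filter on dim genes. In R 4.3.3, limma 3.58.1 fitted 4 group means to all 12 arrays with lmFit and moderated the variances by eBayes, with a trend on intensity (8 residual degrees of freedom). It gave 7 comparisons with two-sided p-values, adjusted by Benjamini-Hochberg over all genes, with 0.05 as the threshold for passing. Errors of differences are standard errors and intervals are 95% intervals from this fit. The p-values measure the spread between pools, and 3 arrays per group limit the precision.

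The fit was also run on simulated data as a self-test, whose outcome is not given here and is not used as support. All members could be named, with up to 4 passing genes of each further list per comparison having the smallest adjusted p. The members and lists were chosen with earlier results of these data known. Alternatives changed the eBayes prior, the normalization, the probe set rule, the level filter, array weights, the arrays in the fit and the replicate block. Promoters were read from RefSeq's table, and Python 3.11.15 with matplotlib 3.10.9 made the plots.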

Additional observations from a re-analysis of the deposited data

How the results depend on the processing

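Counts of genes passing among the 36 are given per comparison. Without the arrays that stand apart, refeeding calls covered 17.5% of all genes in LG2KO, 12.1% in control livers and 25.2% averaged over genotype. Genotype calls averaged over feeding covered 1.29% there. For the other settings and omissions, here and below, the share of all genes is not given. A change in their counts is therefore not read as particular to the 36 genes. Array weights gave 1 call in refed and 2 in fasted livers for genotype, 1 for genotype averaged over feeding, and 8 in LG2KO and 4 in control livers for refeeding. With only the groups compared, the fasted genotype comparison gave 0 calls in limma. Refeeding in LG2KO then gave Rrm2, Mcm10 and Birc5, all lower, and no longer Gins1. Genes above the median level and the mean of all probe sets each gave 2 control refeeding calls. Arrays set to a common median and the mean of all probe sets each gave 1 LG2KO refeeding call. In 2 settings chosen after seeing the data, leaving out the arrays that stand apart gave 6 LG2KO, 4 control and 10 averaged refeeding calls and 1 genotype call averaged over feeding, and also leaving out the array with pancreas transcripts gave 6 LG2KO and 2 control calls. The cause of these shifts was not tested.

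Leaving out each array in turn, where a group with 2 arrays shares the spread of the others, gave 0 to 0 calls for refed genotype and for the interaction, 0 to 1 for fasted genotype and for genotype averaged over feeding, 1 to 3 for refeeding in LG2KO and in control livers, and 4 to 8 averaged over genotype. The replicate block gave 1 genotype call averaged over feeding, Rrm2, and 1 LG2KO refeeding call. Whether the replicate numbers pair the samples is not known. Of 18 pairs of same-numbered arrays 6 had deviations correlated above 0.1, with r between -0.464 and 0.769. The highest r, 0.752 at replicate 1 and 0.769 at replicate 3, joined control refed and LG2KO fasted arrays. With 3 arrays per group this check cannot exclude shared handling of some arrays. Of the single gene results, 201 kept their side of the threshold, 22 were missed and 0 reversed. Background is not known, so differences of dim genes may be understated.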

Other observations

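For 27 of the 36 measured genes the arrays carried more than 1 probe set, and some probe sets of a gene differed from the one used. For refeeding averaged over genotype, a second probe set of the E-type cyclin gene Ccne1 fell by 0.36 ± 0.09 (limma, adjusted p = 0.0299 over probe sets), and the one used had -0.17 ± 0.09. A second probe set of Mcm2 rose by 0.58 ± 0.14 (limma, adjusted p = 0.0161 over probe sets), and the one used had 0.45 ± 0.16. For refeeding in LG2KO livers, a further probe set of the checkpoint kinase Bub1b fell by 0.41 ± 0.10 (limma, adjusted p = 0.0451 over probe sets), and the one used had -0.02 ± 0.12.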
